A study of Homo sapiens with 8 samples.

Results

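Protein synthesis runs on a defined set of soluble factors, and the genes that encode the initiation and elongation factors were followed here in cells labelled HepG2, a line derived from a human liver carcinoma. They were taken as every gene of the deposited expression table whose symbol begins with EIF and a digit from 1 to 6, or with EEF and the digit 1 or 2. EEF1E1, which encodes a component of the aminoacyl-tRNA synthetase complex, and the antisense genes EIF3J-AS1 and EIF1B-AS1 were left out of the 60 rows that matched. The remaining 57 genes are compared below, out of 14526 genes in the table. RNA was sequenced from 4 control cultures, for which the labels name no added agent, and from 4 cultures kept with 10 mM sodium benzoate (SB) for 24 h. The study used SB, a food preservative and drug, to raise lysine benzoylation on histones, and the comparison asks which transcripts differed in level when SB was present. The model is a single cell line grown in culture, and the study gives the replicates of each group as biological ones. Expression is given in RPKM, the number of reads on a gene scaled to the length of its exons and to the total of the library. Levels of different genes can be set beside each other only roughly. Ranks and shares between genes depend on that length, for example 6320 bp for EEF1D and 1110 bp for EEF1B2, and on which exons it covers. EIF1AY, EIF2S3B, EIF2S3L, EIF3C, EIF3CL, EIF4A1, EIF4E1B, EIF4EBP3 and 5 genes for enzymes that methylate elongation factor 1A were not analysed here.

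As background, initiation begins when eIF2, bound to GTP and the initiator tRNA, joins eIF1, eIF1A, eIF3 and eIF5 on the small ribosomal subunit. The eIF4F complex, made of the cap-binding protein eIF4E, the scaffold eIF4G and the helicase eIF4A, brings this assembly to the capped end of the mRNA, and the assembly then scans to the start codon, where eIF5B joins the large subunit. In elongation eEF1A carries aminoacyl-tRNA to the ribosome, the eEF1B complex recharges eEF1A with GTP, eEF2 moves the ribosome along the mRNA, and eIF5A helps the ribosome past sequences at which it stalls. Liver cells make large amounts of secreted protein, and the same factors serve every cell type, so none of these genes marks the liver.

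Between 37010896 and 44903216 reads per library could be recovered from the table, and a factor gene had between 90 (EIF5AL1) and 446481 (EEF1A1) reads in a library. Control replicate 1 stood apart from the rest. Its log2 difference from the mean of the other control replicates had an SD across genes of 0.208, against 0.0941 to 0.0969 for the other 3 and 0.0600 to 0.0816 for the SB-treated replicates, and it was the control replicate farthest from the others for 43 of the 57 factor genes (75.4%, against 66.9% of all genes). Several estimates that moved with it are therefore given with and without it, and others are given only with it. Among hepatocyte genes TF had 0.192 ± 0.0188 RPKM (SD, n = 4) in control, and the defining markers ALB, AFP, APOA1, TTR and HNF4A had no row among the genes analysed, so the labelled cell type could not be checked against them. A missing row does not show that a gene was silent, since widely expressed genes such as EIF4A1 and EIF3C had no row either. Of the markers of other cells, 2 of 8 macrophage genes had a row (summed level 2.09 to 2.34 RPKM in control and 2.18 to 3.14 in SB-treated replicates), 1 of 6 endothelial genes (0.268 to 0.348 and 0.113 to 0.185) and 4 of 6 fibroblast genes (6.63 to 8.97 and 6.62 to 6.98, with log2 fold changes of -0.48 for COL3A1 and 0.26 for LUM), and their part in the results was not tested.

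Transcripts of the translation factors were mostly lower in SB-treated cells. Of the 57 genes, 35 (61.4%) were lower and 7 (12.3%) were higher at an adjusted p below 0.05 in limma on log2(RPKM + 1), a fit of all genes with Benjamini-Hochberg adjustment over all of them. Over all genes 32.6% were lower and 33.0% higher by the same rule. Highly expressed genes fell more often in this experiment, and factor genes are highly expressed (median 85.7 RPKM, against 8.51 over all genes). Among the 6644 genes with a mean of at least 10 RPKM, a level chosen after the values were seen, 48.2% were lower and 21.0% higher, and of the 50 factor genes above that level 32 (64%) were lower and 4 (8%) higher. The median log2 fold change was -0.18 over the factor genes, -0.12 over genes of at least 10 RPKM and 0.0045 over all genes. Changes were small in size: 6 factor genes fell by more than 0.5 on the log2 scale and 1 rose by more than that. Of all genes 5.45% fell and 5.12% rose past it. The log2(RPKM + 1) scale understates changes of low genes, so these shares are not matched to the factor genes in level. The 15 genes that were not called had log2 fold changes of at most 0.12 in either direction. In a culture, fewer cells of one kind and less RNA per cell cannot be told apart.

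**Figure D1:**
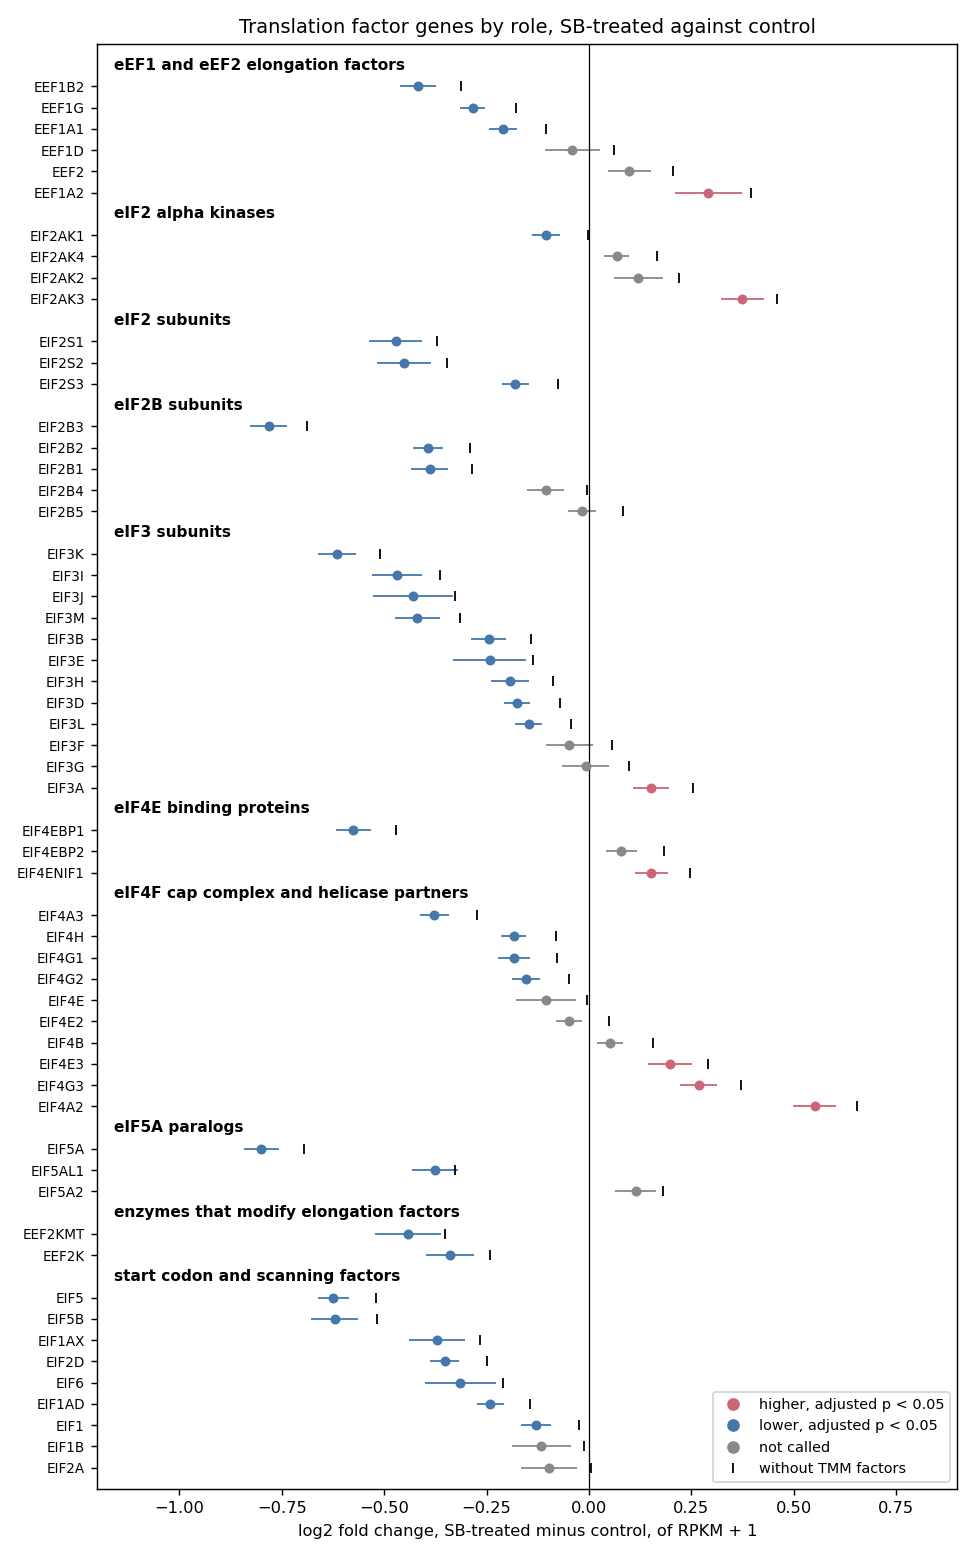
Log2 fold change of RPKM + 1 (SB-treated minus control) for the 57 factor genes, grouped by role; points are limma estimates, bars are their standard errors, and black ticks give the estimate from library sizes without TMM factors. Most points lie left of 0, with 35 genes lower and 7 higher, and the ticks sit to the right of the points.

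For 34 of the 35 genes that fell and for all 7 that rose, the 4 SB-treated replicates did not overlap the 4 control replicates. EIF6 fell although the groups overlapped, and EIF2AK4 lay without overlap on the higher side and did not pass the test. Over all genes 30.5% were lower and 31.0% higher without overlap. An exact permutation test of 4 against 4 replicates, two-sided, gives p = 0.0286 for every such gene, the smallest value it can give. The counts moved with the scaling of the libraries. The deposited values carry TMM factors, which scale each library by its bulk of genes, of 0.956 to 0.968 in control and 1.03 to 1.04 in SB-treated libraries, and taking them out raised the log2 ratio of RPKM between the groups by 0.105 for every gene, and the log2(RPKM + 1) estimate of genes with low RPKM by less. Then 25 factor genes were lower and 13 higher, while 23.1% of all genes were lower and 43.0% higher, and the share of higher genes among those called went from 16.7% to 34.2% for the factors and from 50.2% to 65.1% for all genes. The 25 are all among the 35. Without control replicate 1, 38 factor genes were lower and 12 higher (37.9% and 37.6% of all genes), and all 35 and all 7 kept their call.

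The promoters of the factor genes, taken from 250 bases before to 50 bases after each start in RefSeq (GRCh38.p14), were available for 46 of the 57 genes and were searched on both strands for 10 short words after the expression values were known. CACGTG, an E-box that binds MYC with MAX and related factors, was present for 12 of the 46 (26.1%), for 12.5% of 10651 genes of the table with a promoter and in 7.26% of all promoters. TTTCCGG was present for 12 (26.1%, 8.78% of table genes and 4.31% of all promoters), and CCGGAAG, a core of ETS factor sites, for 13 (28.3%, 21.1% and 10.3%). Both words hold CCGGAA when TTTCCGG is read on the other strand, so their matches can overlap. The other words were TGACGTCA (2.17% of factor genes, 3.76% of table genes and 1.85% of all promoters), a word of 10 letters from the NRF1 site (0%, 2.55% and 1.24%), TGATGNAA (2.17%, 2.75% and 3.62%), TATAAA (4.35%, 8.497% and 11.5%), CCAAT (47.8%, 43.1% and 34.6%), GGGCGG (76.1%, 76.7% and 45.0%) and GATTGG (23.9%, 23.3% and 15.1%), and GATTGG holds CCAAT read on the other strand. Of the 12 genes with the E-box 6 fell and 6 were not called, and of all 46 genes with a promoter 28 fell. Windows of 30 bases around it are shown as examples for 6 of the 12 genes, 1 window a gene and chosen by no rule, with CACGTG in capitals. EIF2B3, EIF4A3, EIF3K and EEF2K fell, and EIF4E and EIF4B did not pass the test. A match describes the letters in these windows and not a bound site.
EIF2B3 (chr1:44986757-44986786, minus strand): gacagagggacaCACGTGtcgaatgctcct
EIF4A3 (chr17:80147232-80147261, minus strand): ccagttccctttCACGTGacgaagagtgcc
EIF3K (chr19:38619073-38619102, plus strand): cgaggaagaagtCACGTGgcagccggaaag
EEF2K (chr16:22206207-22206236, plus strand): cctgggggcggcCACGTGagcgccacgccg
EIF4E (chr4:98929188-98929217, minus strand): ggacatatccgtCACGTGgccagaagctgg
EIF4B (chr12:53006422-53006451, plus strand): gcccgctataatCACGTGattgcctcatcc

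Of 9 factors grouped here around scanning and the start codon 7 fell and none rose, beside 32.6% and 33.0% of all genes. Their summed level dropped by 16.8%, from 1082 ± 11.4 to 900.3 ± 8.46 RPKM (SD, n = 4). The group also takes in genes with other roles, such as EIF6. EIF5 encodes the protein that makes eIF2 hydrolyse its GTP when the start codon is found, at hg38 position 103333544 to 103345025, plus strand, of chromosome 14 (GENCODE release 44). Its level was 149.7, 137, 138 and 139 RPKM in control replicates 1 to 4 and 92.4, 90.4, 89.4 and 92 RPKM in SB-treated replicates 1 to 4. The groups lay far apart, and EIF5 fell by 0.62 on the log2 scale (SE 0.038, adjusted p = 1.22e-06 in limma). EIF5B, the GTPase that joins the large ribosomal subunit, located at 99337371 to 99401326, plus strand, of chromosome 2, had 74.7, 63, 69.7 and 62.9 RPKM in control replicates 1 to 4 and 45.2, 42.2, 43 and 43.6 RPKM in SB-treated replicates 1 to 4. Every SB-treated replicate lay under every control replicate, with a log2 fold change of -0.62 (SE 0.0575, adjusted p = 1.28e-05 in limma). EIF5B shares exon sequence on the other strand with REV1, and EIF5 on its own strand with an unnamed gene. EIF1AX, which encodes the scanning factor eIF1A, fell from 105 ± 11.6 to 80.4 ± 1.91 RPKM (log2 fold change -0.37, SE 0.068, adjusted p = 9.62e-04 in limma). EIF2D, a factor that can deliver tRNA without eIF2, fell by 0.35 and EIF6, which keeps the large subunit from joining early, by 0.31 on the log2 scale, the latter from 57.2 to 78.6 RPKM in control replicates to 54.8 to 58.7 RPKM in SB-treated replicates, so that the groups overlapped. EIF1AD fell by 0.24. EIF1, the gatekeeper of start codon choice and the most abundant of the group at 505 ± 15.5 RPKM in control, fell by 0.13, and its estimate turned to 0.059 after a correction for GC content and length. Its paralog EIF1B (82.8 ± 10.03 RPKM in control and 76 ± 1.12 in SB-treated cells) and EIF2A (35 ± 4.06 and 32.5 ± 0.62 RPKM), which encodes an alternative initiator tRNA carrier, did not pass the test. Without TMM factors EIF1 (-0.024) and EIF6 (-0.21) were no longer called, which left 5 of the 9 lower, beside 23.1% of all genes.

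**Figure D2:**
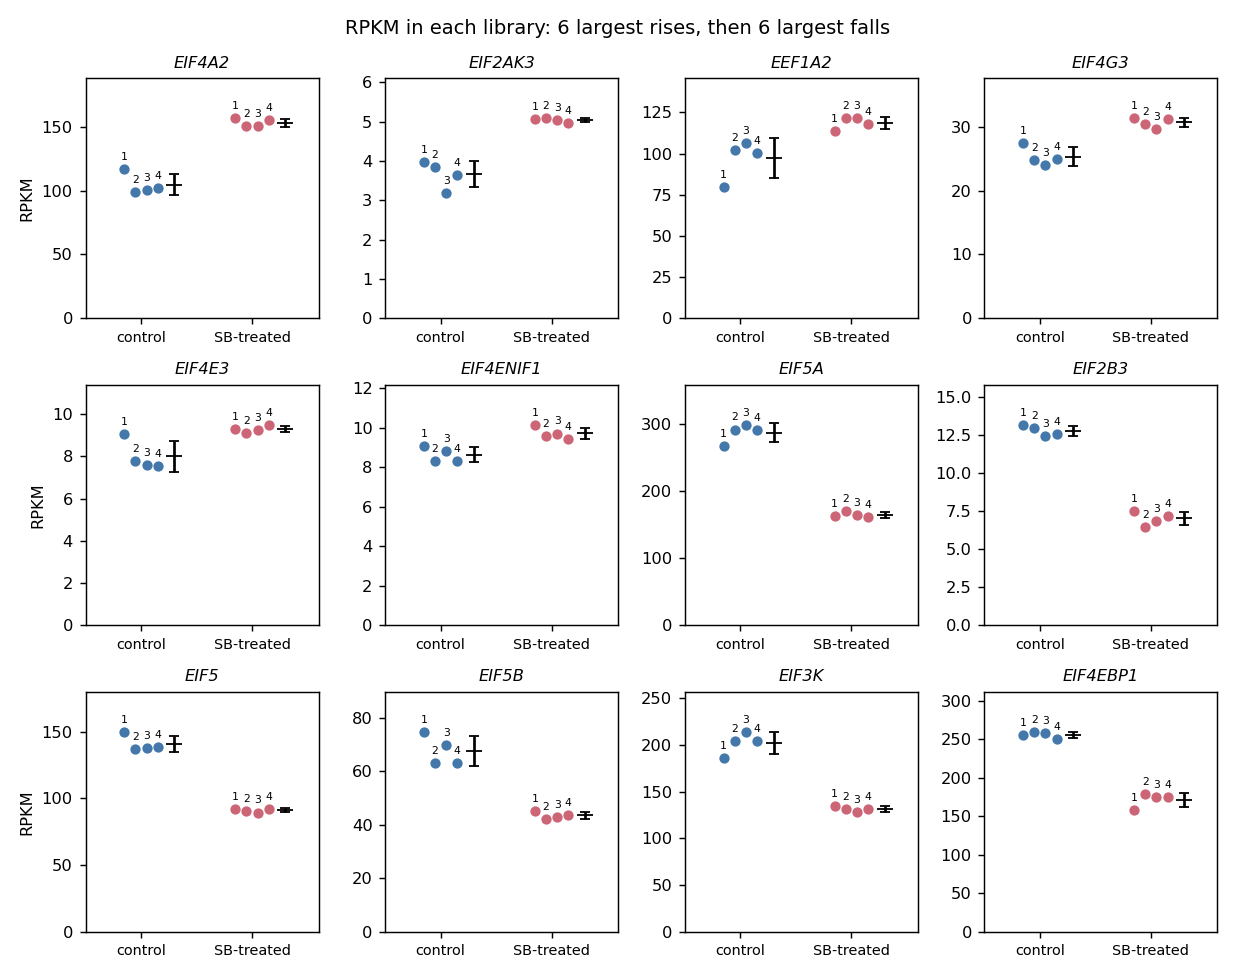
RPKM in each library for the 6 factor genes with the largest rises (EIF4A2 to EIF4ENIF1) and the 6 with the largest falls (EIF5A to EIF4EBP1); points are libraries numbered by replicate, and the black marks give the mean and SD of 4. The genes were picked among those with an adjusted p below 0.05, groups without overlap and a mean of at least 1 RPKM, so no panel can show overlap. The SB-treated replicates of EIF5A lie between 161 and 171 RPKM under control replicates at 267 to 298 RPKM.

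All 3 measured subunits of eIF2, the carrier of the initiator tRNA, fell, beside 32.6% of all genes. The summed level of the 3 went from 359.5 ± 19.6 to 291 ± 4.02 RPKM. That sum dropped by 19.0%. EIF2S1 encodes the alpha subunit, whose phosphorylation stops eIF2 recycling. It had 36.2, 29.2, 29.7 and 29.5 RPKM in control replicates 1 to 4 and 22.8, 21.5, 22.1 and 22 RPKM in SB-treated replicates 1 to 4. Control replicate 1 was the highest, and the groups stayed apart without it: the log2 fold change was -0.47 (SE 0.0652, adjusted p = 1.61e-04 in limma) with it and -0.40 (adjusted p = 1.33e-06 in limma) without it. EIF2S2, the beta subunit, fell in nearly the same measure (-0.45, SE 0.0651, adjusted p = 2.13e-04 in limma), and EIF2S3, the GTP-binding gamma subunit, fell less (-0.18, SE 0.0331, adjusted p = 0.001 in limma) and was not called without TMM factors (-0.075, adjusted p = 0.063). The alpha subunit had the lowest level per length in every library, and the highest of the 3 levels was 5.45 to 6.77 times the lowest in control replicates and 7.70 to 7.94 times in SB-treated ones.

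The exchange factor eIF2B, which reloads eIF2 with GTP, showed unequal changes among its 5 subunits. EIF2B1, EIF2B2 and EIF2B3 fell, and EIF2B4 and EIF2B5 did not pass the test. EIF2B3 (gamma subunit; chromosome 1, 44850522 to 44986722, minus strand), one of the genes whose E-box window is printed above, had 13.1, 12.9, 12.4 and 12.5 RPKM in control replicates 1 to 4 and 7.51, 6.47, 6.86 and 7.18 RPKM in SB-treated replicates 1 to 4. The level dropped by 45.1% with no overlap, a log2 fold change of -0.78 (SE 0.045, adjusted p = 9.49e-07 in limma). EIF2B1 (alpha) went from 42.7 ± 2.45 to 32.4 ± 0.74 RPKM and EIF2B2 (beta) from 49 ± 1.58 to 37 ± 0.891 RPKM, with log2 fold changes of -0.39 and -0.39. EIF2B5, which encodes the catalytic epsilon subunit, stood at 18.2 ± 0.507 RPKM in control and 18 ± 0.272 in SB-treated cells, and EIF2B4 (delta) at 24.6 ± 1.3 and 22.8 ± 0.835 RPKM. EIF2B3 was the least abundant subunit in all libraries, and its share of the summed RPKM was 8.66 ± 0.209% in control and 5.98 ± 0.44% in SB-treated replicates (SD, n = 4). The ratio of highest to lowest subunit was 3.75 to 4.00 in control and 4.98 to 5.82 in SB-treated replicates.

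**Figure D3:**
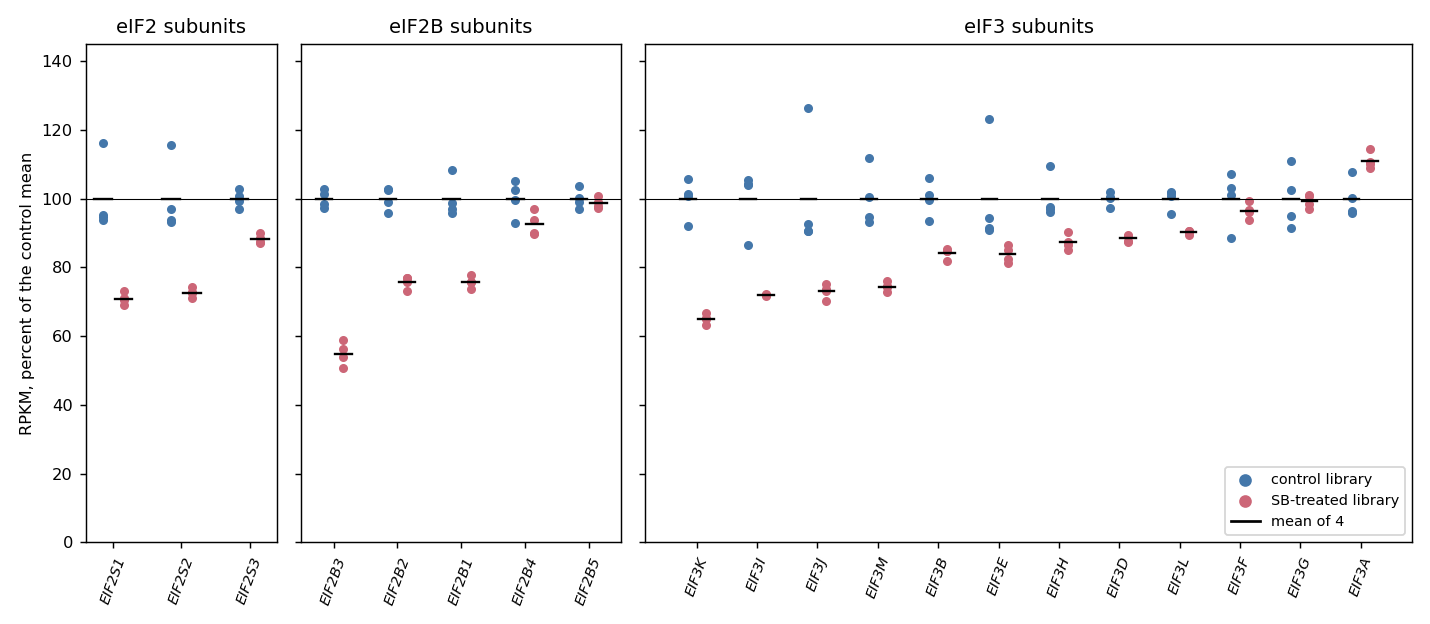
RPKM of each eIF2, eIF2B and eIF3 subunit gene in each library, as a percent of the gene's control mean; points are the 4 control and 4 SB-treated libraries and black lines their means. EIF2B3 and EIF3K lie lowest in SB-treated libraries, EIF3A lies above its control mean, and control replicate 1 is the high point for EIF2S1, EIF3J and EIF3E.

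The 4 kinases that phosphorylate eIF2 alpha did not move together. EIF2AK3, which encodes the endoplasmic reticulum kinase PERK (chromosome 2, 88556741 to 88691518, minus strand), had 3.97, 3.85, 3.2 and 3.65 RPKM in control replicates 1 to 4 and 5.08, 5.09, 5.04 and 4.96 RPKM in SB-treated replicates 1 to 4. The SB-treated replicates all lay above the control replicates, and the log2 fold change was 0.37 (SE 0.0518, adjusted p = 1.61e-04 in limma). EIF2AK1, the heme-regulated kinase, had 48.4, 45.3, 47.6 and 47.3 RPKM in control replicates 1 to 4 and 43.9, 42.9, 44.5 and 43.8 RPKM in SB-treated replicates 1 to 4. The fall was slight, with a log2 fold change of -0.10 (SE 0.0339, adjusted p = 0.0212 in limma), and the call was lost without SB-treated replicate 2 (adjusted p = 0.0634 in limma), without SB-treated replicate 4 (0.0504) and without TMM factors. EIF2AK2, the kinase PKR that responds to double-stranded RNA, had 15.1, 12.4, 12.6 and 12.8 RPKM in control replicates 1 to 4 and 15, 14, 14.4 and 14.2 RPKM in SB-treated replicates 1 to 4. Control replicate 1 reached the range of the SB-treated replicates, and the log2 fold change of 0.12 (SE 0.06004, adjusted p = 0.102 in limma) did not pass, while without that replicate it was 0.18 (adjusted p = 4.12e-04 in limma). EIF2AK4, the amino acid sensor GCN2, had 16.3, 15.5, 15.8 and 15.8 RPKM in control replicates 1 to 4 and 16.9, 16.5, 16.7 and 16.6 RPKM in SB-treated replicates 1 to 4. The groups lay side by side without overlap, at 0.068 (SE 0.0312, adjusted p = 0.0795 in limma), without control replicate 1 the value was 0.081 (adjusted p = 0.0109 in limma), and after the GC and length correction it was -0.020. Summed over the 4 kinases the level was 79.9 ± 2.87 RPKM in control and 79.9 ± 1.1 RPKM in SB-treated cells.

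Of 12 measured subunits of eIF3, the scaffold that holds the initiation factors on the small ribosomal subunit, 9 fell, 1 rose and 2 did not pass. Of all genes 32.6% fell and 33.0% rose. The summed level of the 12 subunits dropped by 15.5%, from 2165 ± 43.5 to 1829 ± 19.8 RPKM. EIF3K, a small subunit of the outer part of the complex (chromosome 19, 38619082 to 38636955, plus strand), had 186, 204, 214 and 204 RPKM in control replicates 1 to 4 and 134, 131, 128 and 132 RPKM in SB-treated replicates 1 to 4. This was the largest fall in the complex, a log2 fold change of -0.62 (SE 0.0457, adjusted p = 3.53e-06 in limma), and the gene went from the third to the eighth place among the 12 subunits by level per length. EIF3I, EIF3J and EIF3M followed with log2 fold changes of -0.47, -0.43 and -0.42. EIF3J, a loosely bound subunit, went from 61.3 ± 10.8 to 44.8 ± 1.32 RPKM, and control replicate 1 was by far the highest library. Without that replicate its log2 fold change was -0.31 (adjusted p = 1.02e-05 in limma). EIF3A, the largest subunit (chromosome 10, 119033670 to 119080817, minus strand), had 172, 153, 160.1 and 154 RPKM in control replicates 1 to 4 and 183, 174, 176 and 177 RPKM in SB-treated replicates 1 to 4. It was the 1 gene of the 12 that rose, with a log2 fold change of 0.15 (SE 0.0437, adjusted p = 0.0124 in limma), and it moved from the eighth to the third place by level. EIF3B, EIF3D and EIF3L fell by 0.24, 0.18 and 0.15 on the log2 scale, and EIF3F and EIF3G had values of -0.048 and -0.0074 without passing the test. EIF3E depended in the size of its fall on control replicate 1, with a level of 354, 261, 271 and 263 RPKM in control replicates 1 to 4 and 249, 233, 236 and 244 RPKM in SB-treated replicates 1 to 4. The log2 fold change was -0.24 (SE 0.0893, adjusted p = 0.0361 in limma) with that replicate and -0.14 (adjusted p = 0.00261 in limma) without it, and the call was lost without each of SB-treated replicates 1 to 4 (adjusted p between 0.0543 and 0.0832 in limma), without TMM factors and after the GC and length correction. EIF3H fell by 0.19, and its estimate turned to 0.019 after that correction. The correction also lowered the falls of EIF3M to -0.21, of EIF3D to -0.075 and of EIF3L to -0.041, the last no longer called. Without TMM factors 5 of the 12 subunits were lower (EIF3B, EIF3I, EIF3J, EIF3K and EIF3M) and 1 was higher. Of all genes 23.1% were then lower and 43.0% higher.

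The cap-binding complex eIF4F and its helicase partners had 3 of 10 genes higher, 4 lower and 3 not called. These shares lay near the 33.0% and 32.6% of all genes. With the TMM factors in place the summed level dropped by 2.36%. EIF4A2, which encodes one form of the RNA helicase eIF4A (chromosome 3, 186783205 to 186789897, plus strand), had 117, 99.1, 101 and 102 RPKM in control replicates 1 to 4 and 157, 151, 151 and 156 RPKM in SB-treated replicates 1 to 4. Its mean rose by 46.7% and the groups did not overlap, the largest rise among the factor genes, with a log2 fold change of 0.55 (SE 0.0529, adjusted p = 1.58e-05 in limma) and of 0.60 (adjusted p = 1.46e-07 in limma) without control replicate 1. Its span holds the small nucleolar RNA genes SNORA4, SNORA63, SNORA81 and SNORD2, and its exons overlap RFC4 on the other strand. EIF4A3, the helicase of the exon junction complex, fell from 96.9 ± 3.17 to 74.4 ± 1.28 RPKM (log2 fold change -0.38, SE 0.0356, adjusted p = 1.42e-05 in limma). EIF4G1, the main scaffold, had 117, 126, 131 and 127 RPKM in control replicates 1 to 4 and 109.9, 111, 111 and 109 RPKM in SB-treated replicates 1 to 4. The groups did not overlap, and it fell by 0.18 on the log2 scale (SE 0.0389, adjusted p = 0.00234 in limma), with -0.36 after the GC and length correction. Without TMM factors it was not called (-0.078, adjusted p = 0.116 in limma). Of the 10 genes 4 were then higher and 2 lower, EIF4A3 and EIF4H, beside 43.0% and 23.1% of all genes. EIF4G3, a less abundant scaffold (chromosome 1, 20806292 to 21177285, minus strand), rose, with 27.5, 24.8, 24.1 and 25 RPKM in control replicates 1 to 4 and 31.4, 30.5, 29.8 and 31.3 RPKM in SB-treated replicates 1 to 4. Its log2 fold change was 0.27 (SE 0.0451, adjusted p = 5.54e-04 in limma), and 0.15 after that correction. EIF4G2, which encodes a scaffold without an eIF4E site, fell by 0.15 and EIF4H, a helper of the helicase, by 0.18.

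EIF4E, the cap-binding protein, had 23.9, 18.5, 19.97 and 18.7 RPKM in control replicates 1 to 4 and 19.4, 18.1, 18.3 and 19.1 RPKM in SB-treated replicates 1 to 4. Control replicate 1 was the highest of all libraries, the other 3 lay close to or within the SB-treated range, and the log2 fold change of -0.10 (SE 0.0734, adjusted p = 0.231 in limma) did not pass the test, with -0.026 (adjusted p = 0.529 in limma) without that replicate. EIF4E3, a divergent cap-binding paralog (chromosome 3, 71675414 to 71754773, minus strand), had 9.08, 7.78, 7.6 and 7.54 RPKM in control replicates 1 to 4 and 9.3, 9.13, 9.26 and 9.48 RPKM in SB-treated replicates 1 to 4. The rise was 0.20 (SE 0.0536, adjusted p = 0.00906 in limma), with control replicate 1 just under the lowest SB-treated replicates. EIF4E2, which represses translation of some mRNAs, stood at 13.7 ± 0.227 RPKM in control and 13.2 ± 0.296 in SB-treated cells, and EIF4B, a cofactor of the helicase, at 219 ± 3.99 and 227 ± 3.03 RPKM. Neither passed the test.

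Among the proteins that bind eIF4E, EIF4EBP1 fell, EIF4ENIF1 rose and EIF4EBP2 was not called. EIF4EBP1 encodes the repressor 4E-BP1, which releases eIF4E when the kinase mTORC1 phosphorylates it, and had 256, 259, 258 and 251 RPKM in control replicates 1 to 4 and 158, 178, 175 and 175 RPKM in SB-treated replicates 1 to 4. The lowest control replicate lay well above the highest SB-treated one, and the log2 fold change was -0.57 (SE 0.043, adjusted p = 3.66e-06 in limma). EIF4EBP2, its paralog, had 43.6, 42.3, 39.5 and 42.4 RPKM in control replicates 1 to 4 and 45.3, 44.1, 43.5 and 44.6 RPKM in SB-treated replicates 1 to 4. Its groups overlapped at a log2 fold change of 0.080 (SE 0.0385, adjusted p = 0.0938 in limma), without control replicate 1 the value was 0.10 (adjusted p = 0.0197 in limma), and after the GC and length correction it was -0.030. EIF4ENIF1, which encodes the shuttling protein 4E-T found in processing bodies (chromosome 22, 31436977 to 31496108, minus strand), had 9.05, 8.33, 8.83 and 8.32 RPKM in control replicates 1 to 4 and 10.1, 9.56, 9.7 and 9.44 RPKM in SB-treated replicates 1 to 4. The groups were adjacent without overlap and the rise was 0.15 (SE 0.0394, adjusted p = 0.00679 in limma).

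EIF5A showed the largest fall of all factor genes on the log2(RPKM + 1) scale, which understates changes of low genes. EIF2B3, at a lower level, dropped more in percent of its control mean. With a pseudocount of 0.1 the log2 fold change was -0.857 for EIF2B3 and -0.804 for EIF5A. The EIF5A gene encodes eIF5A, the protein that carries the modified lysine hypusine. It is located at 7306999 to 7312463, plus strand, of chromosome 17, where its exons overlap GPS2 on the other strand. Its level was 267, 292, 298 and 291 RPKM in control replicates 1 to 4 and 162, 171, 164 and 161 RPKM in SB-treated replicates 1 to 4. The 4 SB-treated replicates lay within 10 RPKM of each other and far under the control replicates, so that the mean dropped by 42.8%, with a log2 fold change of -0.80 (SE 0.0428, adjusted p = 6.65e-07 in limma). EIF5A2, a paralog with low expression, had 1.77, 1.58, 1.56 and 1.4 RPKM in control replicates 1 to 4 and 1.91, 1.88, 1.68 and 1.68 RPKM in SB-treated replicates 1 to 4. Its log2 fold change of 0.11 (SE 0.051, adjusted p = 0.0738 in limma) did not pass the test, and without control replicate 1 it was 0.15 (adjusted p = 0.00928 in limma). EIF5AL1 is a near-identical copy of EIF5A, so that reads could be shared between them, and its fall from 1.16 ± 0.108 to 0.663 ± 0.11 RPKM is uncertain for that reason.

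Elongation factors held more than any other group: EEF1A1, EEF2 and EEF1G together made up 50.9 to 54.7% of the summed RPKM of all 57 genes. EEF1A1, which encodes the main carrier of aminoacyl-tRNA, had 2895, 3090.4, 3034 and 3111 RPKM in control replicates 1 to 4 and 2607, 2609, 2613 and 2649.7 RPKM in SB-treated replicates 1 to 4. The SB-treated replicates lay under the control replicates, with a log2 fold change of -0.21 (SE 0.0344, adjusted p = 4.71e-04 in limma). EEF1A2, the second form of this protein, normally made in muscle and nerve (chromosome 20, 63488013 to 63499239, minus strand), had 79.7, 102, 106 and 101 RPKM in control replicates 1 to 4 and 114, 121, 121 and 118 RPKM in SB-treated replicates 1 to 4. It rose, and control replicate 1 was the lowest library: the log2 fold change was 0.29 (SE 0.0812, adjusted p = 0.0102 in limma) with it and 0.20 (adjusted p = 4.33e-04 in limma) without it. EEF2, the translocase, had 1622, 1836, 1890.1 and 1825 RPKM in control replicates 1 to 4 and 1840.2, 1989, 1924 and 1919 RPKM in SB-treated replicates 1 to 4. The groups overlapped and the log2 fold change of 0.10 (SE 0.0514, adjusted p = 0.116 in limma) did not pass the test. Without TMM factors it was 0.20 (adjusted p = 0.00784 in limma), and without control replicate 1 it was 0.052 (adjusted p = 0.164 in limma). Of the subunits of the exchange complex eEF1B, EEF1B2 fell by 0.42 and EEF1G by 0.28 on the log2 scale (-0.21 and -0.16 after the GC and length correction), and EEF1D had 29.98 ± 2.9 RPKM in control and 29 ± 1.16 RPKM in SB-treated cells without passing. EEF2K, the kinase that switches eEF2 off, had 14.4, 17.6, 16.8 and 17.5 RPKM in control replicates 1 to 4 and 12.9, 12.7, 12.8 and 13.1 RPKM in SB-treated replicates 1 to 4. All SB-treated replicates lay under the control replicates at a log2 fold change of -0.34 (SE 0.0594, adjusted p = 7.27e-04 in limma), and EEF2KMT, which methylates eEF2, fell as well, from 7.92 ± 1.13 to 5.53 ± 0.109 RPKM.

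Related factor genes often differed, and the ratio of their RPKM within each library does not depend on how the library was scaled. The 10 pairs were set out after the values had been seen, each a less abundant or otherwise related gene over a relative, so they are described without a test. The partner of EIF4A2 is EIF4A3, the helicase of the exon junction complex and not that of eIF4F, and EIF4A1 was not analysed. In 6 of the 10 the SB-treated ratios all lay above the control ratios. The share of other gene pairs without overlap was not computed, and of single genes 31.0% lay higher and 30.5% lower without overlap. EIF5A2 stood at 0.663, 0.543, 0.522 and 0.481% of EIF5A in control replicates 1 to 4 and at 1.18, 1.1, 1.02 and 1.04% in SB-treated ones. EEF1A2 went from a mean of 3.2% to 4.53% of EEF1A1, and EIF4A2 from 108% to 206% of EIF4A3. EIF5A2 itself was not called, EEF1A2 and EIF4A2 rose, and all 3 of their partners fell. EIF4G3 over EIF4G1 went from 20.3% to 27.9%, EIF4E3 over EIF4E from 39.6% to 49.7% and EIF4EBP2 over EIF4EBP1 from 16.4% to 25.9%. The other 4 ratios overlapped between the groups. They were EIF5AL1 over EIF5A (0.404% and 0.403%), EIF4G2 over EIF4G1 (181% and 184%), EIF4E2 over EIF4E (68.2% and 70.8%) and EIF1B over EIF1 (16.5% and 16.5%).

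**Figure D4:**
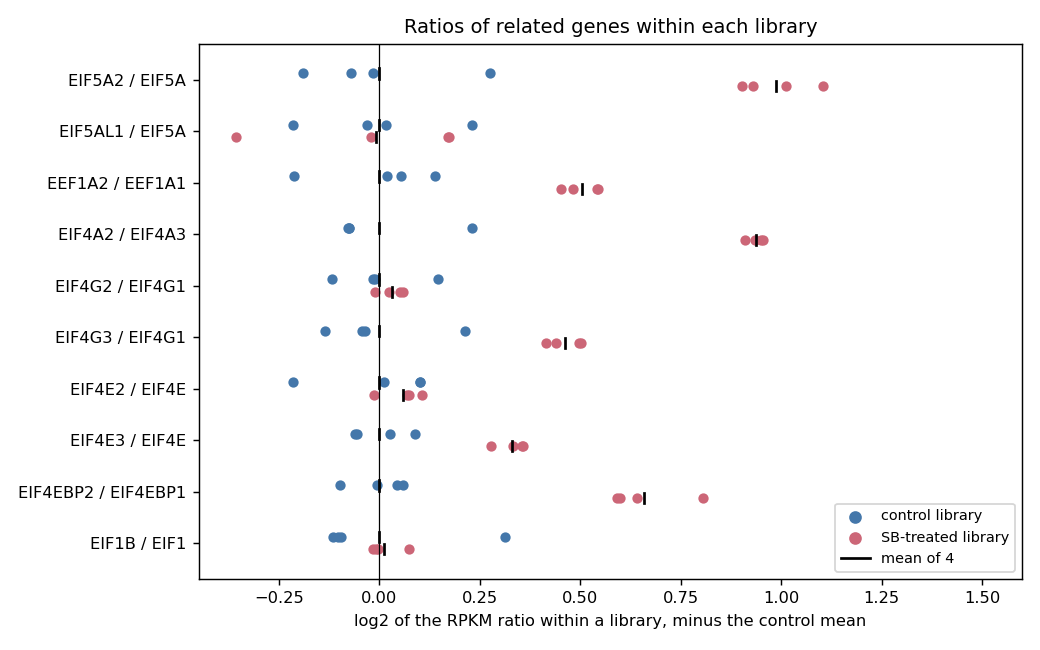
Log2 of the RPKM ratio of 10 pairs of related factor genes within each library, minus the control mean of the pair; points are libraries and black marks the means of 4. The 6 ratios led by EIF5A2, EEF1A2, EIF4A2, EIF4G3, EIF4E3 and EIF4EBP2 lie apart from control, and the other 4 overlap.

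Genes that act around these factors were taken from 8 lists, of which 75 of 77 genes had a row. Of the 75, 49 (65.3%) were lower and 9 (12%) higher, set against the 32.6% and 33.0% over all genes given above. Among genes of at least 10 RPKM the shares were 48.2% and 21.0%, and the list genes were not matched to either set by level. Without TMM factors 37 list genes were lower and 13 higher, while 23.1% of all genes were lower and 43.0% higher. Lists in which no gene rose were termination and ribosome recycling (6 of 7 lower), hypusine and diphthamide synthesis (9 of 13), selenocysteine insertion (5 of 7) and the mitochondrial translation factors (7 of 9). In the hypusine and diphthamide list 1 gene was higher without TMM factors, and 1 without control replicate 1. In termination the largest fall was HBS1L, a ribosome rescue GTPase (log2 fold change -0.49, SE 0.0595, adjusted p = 6.80e-05 in limma). Hypusine synthesis modifies eIF5A, and of its enzymes the spermidine synthase gene SRM fell from 159 ± 24.6 to 90.4 ± 3.63 RPKM (log2 fold change -0.79, SE 0.103, adjusted p = 1.08e-04 in limma), while DHPS, which puts the spermidine part onto eIF5A, fell by 0.28. TUFM, the mitochondrial counterpart of eEF1A, fell by 0.56, and SECISBP2, which recruits the selenocysteine factor, by 0.30.

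In the 3 lists of regulators 8 of 31 genes rose (25.8%). This lay between the 33.0% of all genes and the 21.0% of genes of at least 10 RPKM. In the mTORC1, initiation and phosphatase lists 8 of 14, 7 of 12 and 3 of 5 genes were lower. Of all genes 32.6% were lower, and of genes of at least 10 RPKM 48.2%. Among mTORC1 and its regulators 3 of 14 genes rose and 8 fell (4 and 4 without TMM factors), with TSC2, an inhibitor of mTORC1, from 23.5 ± 3.4 to 36.8 ± 1.61 RPKM (log2 fold change 0.64, SE 0.093, adjusted p = 2.35e-04 in limma) and DDIT4, another inhibitor, from 401 ± 19.1 to 219.9 ± 4.28 RPKM (log2 fold change -0.86, SE 0.0413, adjusted p = 4.26e-07 in limma). RPS6KB1, the S6 kinase gene whose product acts on eIF4B, had a log2 fold change of -0.13 and did not pass. Of 12 other regulators of initiation 3 rose and 7 fell. MKNK2, a kinase of eIF4E, went from 20.4 ± 1.06 to 35.8 ± 1.69 RPKM (log2 fold change 0.78, SE 0.0483, adjusted p = 1.33e-06 in limma), and BZW2, an eIF5 mimic, from 66.7 ± 2.26 to 37.6 ± 0.871 RPKM (log2 fold change -0.81, SE 0.0367, adjusted p = 3.06e-07 in limma). The phosphatase that reverses eIF2 alpha phosphorylation was split by role: both regulatory genes, PPP1R15A (0.43) and PPP1R15B (0.54), rose and all 3 catalytic genes fell, PPP1CB the most (-0.48). Without TMM factors 2 genes of this list were higher and 2 lower. Of 8 poly(A)-binding proteins and partners 1 rose, PABPC4 (0.10), and 4 fell, with PAIP2, a repressor of the poly(A)-binding protein, at -0.52 and PABPC1, the poly(A)-binding protein that contacts eIF4G, at -0.19.

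**Figure D5:**
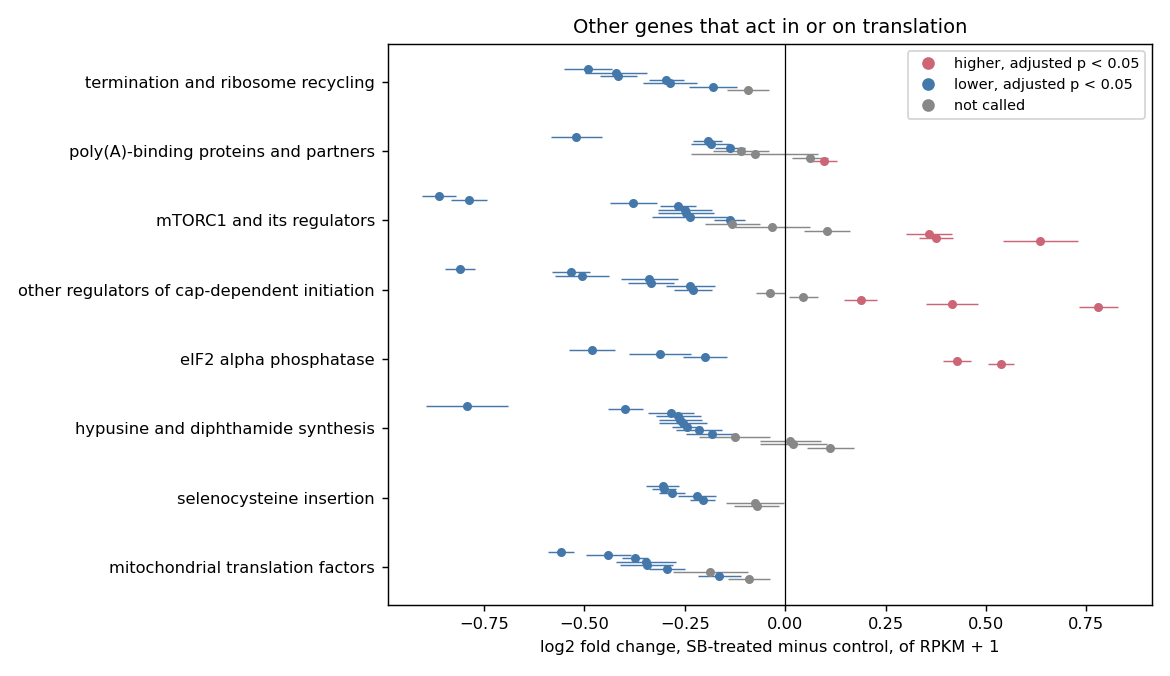
Log2 fold change of RPKM + 1 (SB-treated minus control) for the 75 genes of 8 lists around the translation factors; points are limma estimates and bars their standard errors. In 4 of the 8 lists no gene was called higher, and the 2 called rises of the eIF2 alpha phosphatase list are PPP1R15A and PPP1R15B.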

How the data were processed

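RNA of 4 control and 4 SB-treated samples was read as 50 bp single reads from a stranded total RNA kit. The authors mapped the reads to hg38 with TopHat 2.1.0, counted them per gene with featureCounts 1.5.0 (its strand setting is not given in the sources used here), dropped genes that did not exceed 1 CPM in 2 or more samples and deposited RPKM values on TMM-scaled library sizes from edgeR 3.16.5. The table also holds the authors' deposited log2 fold change and mean log2 CPM. It further holds the authors' deposited p-value and FDR of their own comparison. The authors' fold changes, p-values and FDR were not used, and the mean log2 CPM served only to find gene lengths.

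From the RPKM steps whole reads came out for 100% of the 14526 genes (tolerance 0.01 reads). Groups were compared with limma 3.58.1 in R 4.3.3 (lmFit, eBayes, no covariates) on log2(RPKM + 1), a scale that understates changes of low genes, with Benjamini-Hochberg adjustment over all genes. The fit was tested on simulated data. Members, lists and roles were chosen with earlier results of these data known. Full values are given for the 6 largest rises and 6 largest falls among members with an adjusted p below 0.05, groups without overlap and a mean of at least 1 RPKM, and for fixed members of each role. The genes named from other lists are the largest rise and fall of a list and a gene whose product acts on a member. GENCODE release 44 gave positions and, for 91.5% of the genes, GC content. Exons of 31 members overlap a gene on the other strand, and those of 7 members a gene on the same strand, so their reads cannot be fully told apart. Alternatives were another pseudocount (0.1), a filter of at least 10 reads, other scalings, voom, a replicate block, a GC and length correction and leaving out each replicate. Promoters and coordinates of windows come from RefSeq (GRCh38.p14). The search used Python 3.11.15.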

Additional observations from a re-analysis of the deposited data

Results flagged for a closer look

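In 16 of 114 groups of 4 replicates (57 genes in 2 groups), the highest or lowest replicate stood off from the others by more than Dixon's critical value for 4 samples at the 5% level, taken as the gap to the nearest replicate over the group's range on the log2(RPKM + 1) scale. Chance flags about 1 group in 20, or 5.7 of 114. Control replicate 1 was the replicate concerned in 13 of the 16. It was the highest control replicate for EIF3J (gap of 0.931 of the range), EIF2S1 (0.926), EIF2A (0.91), EIF1B (0.889), EIF3H (0.887), EIF5 (0.873), EIF3E (0.87), EIF4B (0.839), EIF4E3 (0.839), EIF2AK2 (0.838) and EIF4A2 (0.838), and the lowest for EIF3I (0.924) and EEF1D (0.848). The other 3 were control replicate 3 as the highest for EEF1G (0.864), SB-treated replicate 4 as the highest for EEF1A1 (0.841) and SB-treated replicate 2 as the lowest for EIF3B (0.855).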

How the results depend on the processing

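Of the 42 factor genes that were called, 32 kept direction and call under all 17 alternatives. The number called higher was 7, 13 without TMM factors and 7 to 12 when each replicate was left out, with 12 without control replicate 1; the number called lower was 35, 25 without TMM factors and 33 to 38 with each replicate left out. Among the list genes 37 to 53 were lower and 8 to 13 higher over all alternatives, against 49 and 9.

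Replicate numbers 1 to 4 correlated at 0.38, 0.327, 0.173 and -0.16 in their deviations from the group means, so 3 of the 4 were over 0.1 and the numbers were not taken as pairing. With the replicate number as a block 35 factor genes were lower and 9 higher, with EIF2AK2 and EIF5A2 added, and with voom and the block 35 and 10. For these fits the shares of all genes are not given here. With the block and a GC and length correction 33 factor genes (57.9%) were lower and 10 (17.5%) higher. Of the 13290 genes in that fit 37.3% were lower and 33.5% higher. The sign turned in it for EIF4EBP2 (-0.030), EIF3F (0.15), EIF2AK4 (-0.020), EIF1 (0.059), EIF3G (0.11), EIF1B (0.15) and EIF3H (0.019), all log2 values. Of these EIF3F (adjusted p = 0.0232 in limma) and EIF1B (0.0151) were called. Without TMM factors the sign turned, with no call, for EIF3F (0.057), EIF3G (0.097), EIF4E2 (0.050), EIF2A (0.0048), EIF2B5 (0.083) and EEF1D (0.061). EIF3G went from -0.049 to 0.044 when each replicate was left out. The cause of these changes was not tested.

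With 4 replicates a group, genes with log2 changes of about 0.1 fell on both sides of the threshold, so a gene that was not called is not shown to be stable. EIF5AL1, at 90 reads in its lowest library, was the least deeply covered factor gene. Same-numbered replicates are not described as handled together, and p-values measure the spread between these cultures.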
